A study of Mus musculus with 3 samples.

Results

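Genes of ribosome biogenesis and nucleotide synthesis were followed on 3 arrays of LNC, a malignant B-1 cell line of the mouse. The set was defined by 38 gene symbols: nucleolar proteins, small nucleolar ribonucleoprotein (snoRNP) proteins, RNA polymerase I subunits, pre-rRNA processing factors, and enzymes that make polyamines, pyrimidines and purines. Probe sets annotated to these symbols were found for 30 of the 38 genes, as 38 probe sets of the 12588 that are not array controls. Npm3, Fbl, Dkc1, Polr1c, Paics, Atic, Impdh2 and Hprt were not analysed here.

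LNC is a line of malignant B-1 cells, a B cell subset, taken from a 1-year-old New Zealand Black (NZB) mouse's lymph node. There were 3 groups of 1 array each: cells given an antisense oligonucleotide to IL-10 at 20 µM, cells given a scrambled version of that oligonucleotide at 20 µM to control for unspecific effects, and untreated cells, with RNA taken at 24 h. With 1 array per group there was no replicate check and no test, and nothing in the sources says whether an array held 1 culture or several. Il10 RNA, the targeted transcript, read 13946 on the array labelled antisense, above the 5616 with scrambled oligonucleotide and the 5164 without treatment, so the first array is called by its label, and every direction given for it rests on that label.

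A cell makes its ribosomes in the nucleolus, where RNA polymerase I transcribes the precursor of the ribosomal RNAs. snoRNPs guide the chemical modification of this precursor, and processing factors and helicases cut and fold it. Growing cells also need nucleotides and polyamines, which are made by the enzymes described below, and in growing cells many genes of both kinds are known targets of the transcription factor MYC.

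Values are probe set intensities in arbitrary units, brought to a common level on the 3 arrays. An intensity of 595.9 or less is within the noise and is called below the floor. Such a value does not show that the transcript is absent. Differences are on the log2 scale, with values below the floor set to it, and a gene with several probe sets is read by the brightest. The yardstick of error at a given level is the 95th percentile of the size of the scrambled minus untreated difference among the 300 probe sets closest to it in mean level. It contains any effect of the scrambled oligonucleotide. Of the B cell markers with a probe set, Cd79a, Cd79b, Ms4a1, Pax5 and Blnk were above the floor on every array and Cd22 was below it, while the B-1 markers Cd5, Spn and Itgam were below it on the 3 arrays. Ms4a1, the CD20 gene, and Cd79a, of the B cell receptor, were lower on the array labelled antisense past the yardstick. Their differences were -0.53 and -0.50 against scrambled and -0.51 and -0.37 against untreated. Cd79b and Blnk were higher than both controls, by 0.15 and 0.05 against scrambled and 0.11 and 0.22 against untreated. Pax5 differed by -0.27 and -0.11. These 3 lay within their yardsticks. The part of these marker differences in the members' values was not tested. Markers of T cells (1 of 6 above the floor on any array), macrophages (3 of 7) and stroma (2 of 5) were mostly below it. The T cell chains Cd3e, Cd3g and Cd3d were below it on each array, and the 1 T cell marker above it was Cd4.

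Most members kept a similar level on the 3 arrays. Of the 30 genes, 27 were above the floor on at least 1 array and 25 on all 3. For 19 of these 25 the highest array was less than 25% above the lowest, which was so for 40.8% of the 4539 probe sets above the floor on all 3 arrays. The exceptions were Ncl, Polr1b, Polr1d, Bop1, Odc1 and Nme1. The scatter of an array value depends on its level, so the same counts were set side by side by level. Between intensities of 2000 and 8000, 11 of 12 members lay within 25%, beside 45.6% of all probe sets there. Between 8000 and 30000, 5 of 5 members did, beside 62.3%. Below 2000 it was 1 of 5, beside 24.9%, and above 30000 it was 2 of 3, beside 72.0%. Gar1 had the smallest span, with its highest array 1.49% above its lowest, and Polr1d the widest, with 60.5%.

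**Figure D1:**
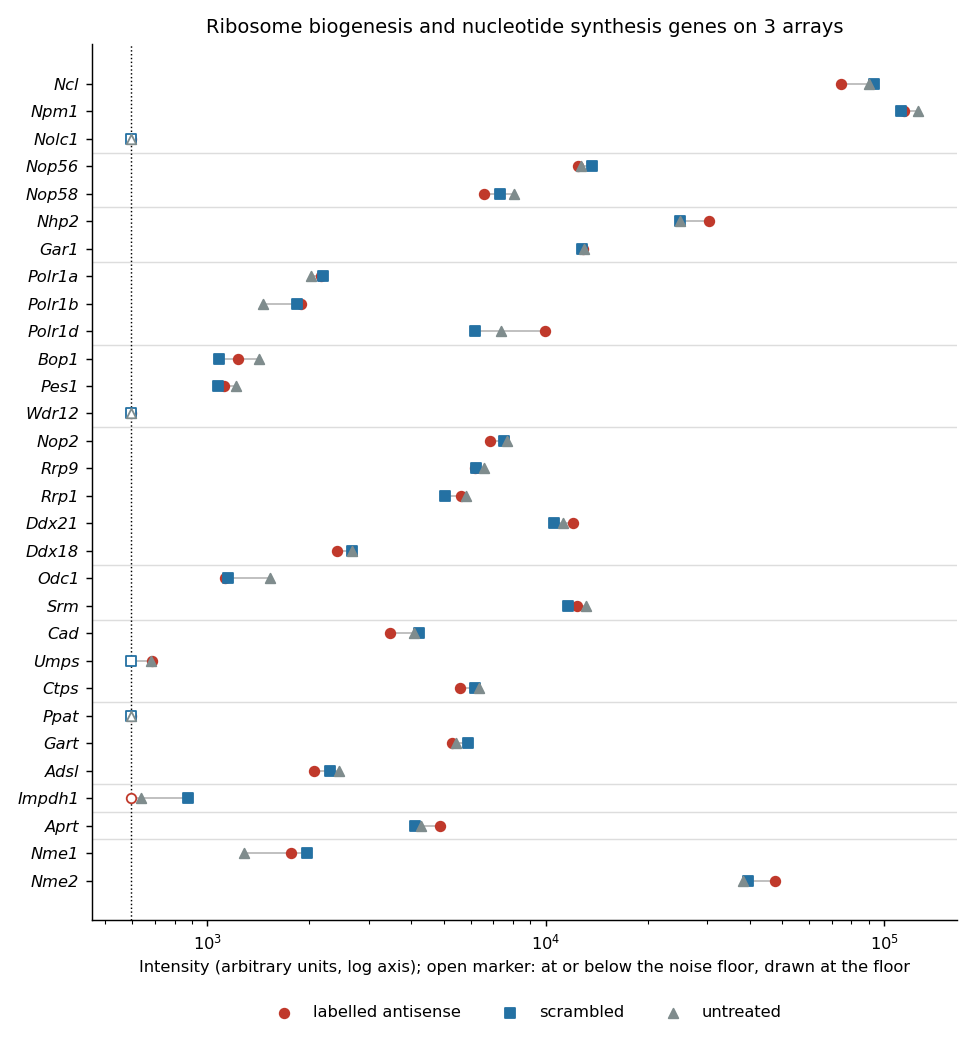
Intensity (log axis) of the 30 genes with a probe set on the array labelled antisense (circle), the scrambled array (square) and the untreated array (triangle), 1 array each, so there is no error bar. Grey lines separate the roles, the dotted line is the floor of 595.9, and open markers lie at or below it. Most genes have 3 markers close together, and Polr1d, Ncl, Nhp2 and Nme2 have the marker of the array labelled antisense apart from the other two.

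Against both controls together, the differences ran in either direction and were small. The array labelled antisense was the lowest of the 3 for 12 of the 27 members past the filter, beside 32.0% of 6127 probe sets past it, and the highest for 7, beside 37.2%. As shares of the members these are 44.4% and 25.9%. The remaining 8 lay between the controls. Among the 25 members above the floor on all 3 arrays, 11 were lowest (44.0%) and 6 highest (24.0%). The shares of the 4539 probe sets above the floor on all 3 arrays were 36.4% and 37.5%. By at least 25% in intensity (0.32 on the log2 scale), 0 members were lower than both controls, beside 11.0% of all probe sets, and 1 was higher, beside 13.5%. No member was 2-fold lower or 2-fold higher than both controls, beside 1.06% and 1.35%. Past the yardstick against both controls in 1 direction lay 1 member, Polr1d, beside 5.26% of all probe sets.

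Taken singly, the comparisons gave similar counts. Against the scrambled array, 2 members were at least 25% lower (21.3% of all probe sets) and 1 was higher (21.4%), with a median over the 27 members of -0.01 and a range of -0.56 to 0.68. Against the untreated array, 1 was lower (19.0%) and 3 were higher (20.9%), with a median of -0.08 and a range of -0.44 to 0.46. Between the controls, 2 were lower on the scrambled array (15.0%) and 3 were higher (16.7%), with a median of -0.03 and a range of -0.41 to 0.62. The corresponding medians over all probe sets past the filter were 0.00. The lower ones were Ncl and Impdh1 against scrambled, Odc1 against untreated, and Bop1 and Odc1 between the controls. The higher ones were Polr1d against scrambled, Polr1b, Polr1d and Nme1 against untreated, and Polr1b, Impdh1 and Nme1 between the controls. Past the yardstick were 2 members against scrambled, Polr1d and at its very edge Ncl, and 1 against untreated, Polr1d, beside 11.1% and 8.96% of all probe sets. These comparisons share arrays and are not independent of each other.

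**Figure D2:**
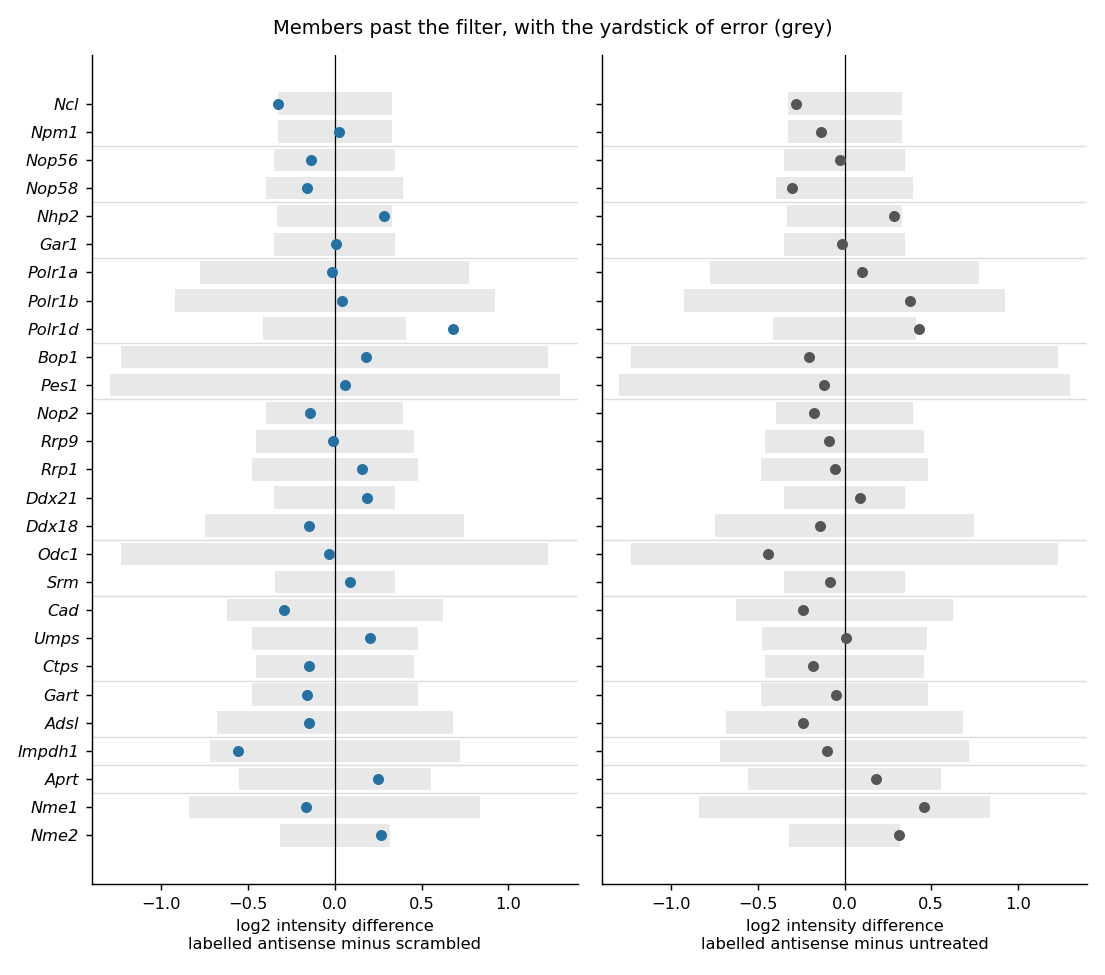
Log2 intensity differences of the 27 members past the filter, for the array labelled antisense minus the scrambled array (left) and minus the untreated array (right). Grey bars span the yardstick of error at each gene's level, with 1 array per group, and grey lines separate the roles. Polr1d, at 0.68 and 0.43, lies outside its bar of 0.41 on both sides, and Ncl, at -0.33 against scrambled, lies at the edge of its bar.

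These counts depend on the level to which the arrays are scaled. The array labelled antisense read lower for the 6 bacterial spike-in controls that stayed under an intensity of 50000 on every array, by 0.51 against scrambled and 0.63 against untreated on the log2 scale. Scaled to them instead, 0 of the 27 members lay below both controls and 26 above, and the medians became 0.50 and 0.55, close to the shift that this scaling gives to every value above the floor. Under the other scalings tried, 12 to 14 were lower and 5 to 7 higher. The directions given here are those relative to the common array level, and with the spike-in scaling a negative difference smaller than the shift turns positive where both values lie above the floor. The 18S ribosomal RNA control probe sets, a sign of RNA quality and priming, had a 3-prime over 5-prime ratio of 8.13 (array labelled antisense), 4.48 (scrambled) and 1.72 (untreated). The 5-prime value on the array labelled antisense, 639.7, was little above the floor of 595.9, so its ratio is imprecise. The part of these differences in the members' values was not tested.

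Nucleolin and nucleophosmin are the abundant phosphoproteins of the nucleolus. Ncl, the nucleolin gene, which serves pre-rRNA transcription and processing, read 74312 (array labelled antisense), 93310 (scrambled) and 90275 (untreated). The array labelled antisense was the low one, and the controls differed by 0.05. The differences of -0.33 against scrambled and -0.28 against untreated compare with a yardstick of 0.33. At this brightness the arrays also differed as a whole: over the 193 probe sets above 30000 the median difference was -0.17 against scrambled, -0.01 against untreated and 0.15 between the controls. With quantile normalization, which evens this out, Ncl differed by -0.25 from scrambled and -0.32 from untreated, and with median scaling by -0.38 and -0.30. Npm1, the nucleophosmin gene, a chaperone of histones and ribosomal proteins, read 114374, 112339.6 and 125861, and the array labelled antisense lay between the controls. Its difference from scrambled, 0.03, was -0.02 to 0.22 over the scalings other than the spike-in one. Nolc1, which encodes a chaperone of snoRNPs, read 196, 491 and 509, all below the floor, so it has no measured difference.

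Of the snoRNP proteins, the 2 measured of the box C/D class, which guide ribose methylation, were slightly lower on the array labelled antisense. Both lay within their yardsticks. In the box H/ACA class, which guides pseudouridylation, 1 of 2 measured was higher than both controls. Nop56, a core protein of box C/D snoRNPs, read 12457 (array labelled antisense), 13729 (scrambled) and 12686 (untreated). Its differences were -0.14 and -0.03 with a yardstick of 0.35. Its partner Nop58, read by a family probe set that can bind related transcripts, read 6552, 7335 and 8071, with differences of -0.16 and -0.30 against a yardstick of 0.40. Nhp2, an RNA-binding core protein of box H/ACA snoRNPs, read 30309 (array labelled antisense), against 24869 (scrambled) and 24872 (untreated). The controls thus coincided, and the difference of 0.29 from either lay within the yardstick of 0.33. Over the scalings other than the spike-in one it was 0.24 to 0.29 against scrambled and 0.26 to 0.29 against untreated. Gar1, of the same complex, read 12859, 12778 and 12968, differences of 0.01 and -0.01, while its dimmer probe set was below the floor on the 3 arrays.

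Of the RNA polymerase I subunits, Polr1d stood beyond its yardstick against both controls. It encodes a small subunit shared by RNA polymerases I and III and read 9931 (array labelled antisense), against 6189 (scrambled) and 7368 (untreated). That is 1.60-fold over scrambled, a log2 difference of 0.68, and 0.43 over untreated, both beyond the yardstick of 0.41, the second by little. The scrambled array differed by -0.25 from the untreated one. Over the scalings other than the spike-in one Polr1d differed by 0.63 to 0.68 from scrambled and by 0.41 to 0.43 from untreated. Its other probe set read -228, 230.2 and -454, all below the floor, so it gives no second reading. Polr1a, the gene of the largest subunit, read 2166, 2192 and 2022. Polr1b, that of the second largest subunit, read 1895, 1838 and 1461 in a family probe set. Here the arrays of both oligonucleotides were above the untreated one, by 0.37 and 0.33, well within the yardstick of 0.92.

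**Figure D3:**
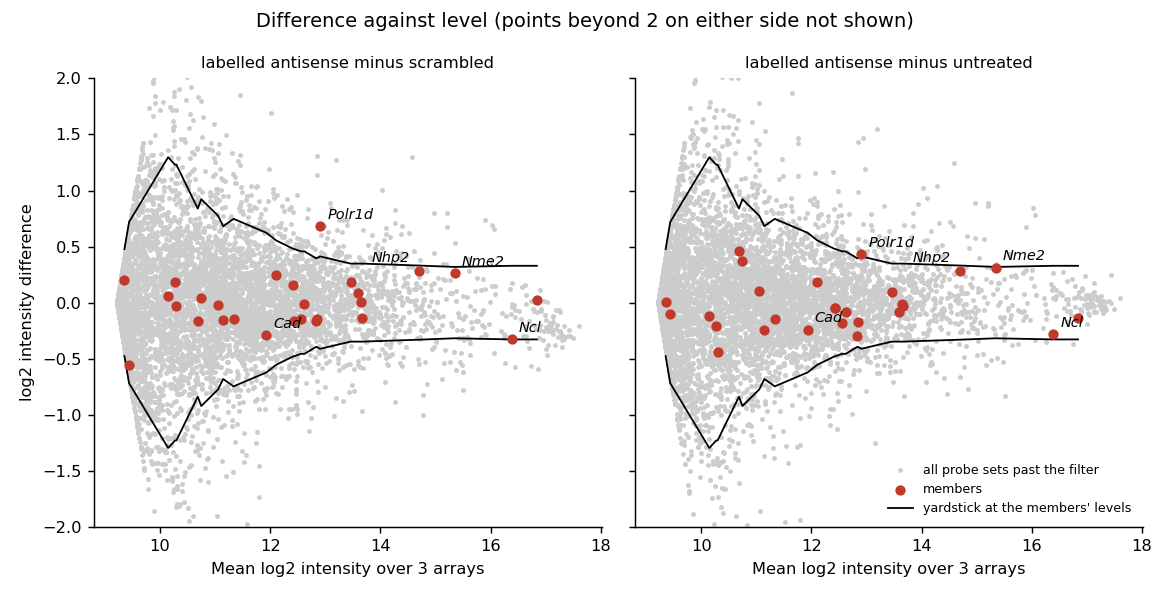
Log2 intensity difference against mean log2 intensity over the 3 arrays, for the array labelled antisense minus scrambled (left) and minus untreated (right). Grey points are the 6127 probe sets past the filter, red points the 27 members, and black lines the yardstick at the members' levels, with 1 array per group. The scatter widens toward low intensity, and Polr1d is the member beyond the lines on both sides.

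The PeBoW complex, which matures the rRNAs of the large ribosomal subunit, was measured at low intensity. Bop1 read 1230 (array labelled antisense), 1085 (scrambled) and 1419 (untreated), and Pes1 read 1118, 1073 and 1215. Both lay between the controls, with yardsticks of 1.23 and 1.30 that leave little to be seen at this level. The dimmer probe set of Bop1 read 150, which is below the floor, against 781 and 866, at least 1.31-fold and 1.45-fold lower. The probe sets of Bop1 thus disagree against the scrambled array. Wdr12, the third subunit gene, was below the floor on the 3 arrays.

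The other processing factors stayed within their yardsticks. Nop2, a methyltransferase of large subunit rRNA, read 6821 (array labelled antisense), 7539 (scrambled) and 7693 (untreated), differences of -0.14 and -0.17. Ddx18, an RNA helicase of large subunit maturation, read 2415, 2677 and 2668, also lowest on the array labelled antisense. Ddx21, a helicase that acts in rRNA transcription and processing, went the other way with 11994, 10553 and 11261, differences of 0.18 and 0.09. Rrp9, a protein of the U3 snoRNP, read 6167, 6201 and 6549. Rrp1, named for its rRNA processing role in yeast, read 5617, 5038 and 5823. In all, 6 of the 16 ribosome biogenesis members past the filter were lower than both controls (37.5%, beside 32.0% of all probe sets) and 4 were higher (25%, beside 37.2%), while 6 lay between, with medians of 0.02 against scrambled and -0.07 against untreated.

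Among the enzymes of polyamine synthesis, Odc1 was lower with either oligonucleotide than without. It encodes ornithine decarboxylase, the first enzyme of the pathway, and read 1129 (array labelled antisense) and 1153 (scrambled), against 1531 (untreated). The differences of -0.44 and -0.41 from untreated are small beside the yardstick of 1.23 at this level. Srm, the spermidine synthase gene, read 12388, 11653 and 13109.5 in a family probe set, with the array labelled antisense between the controls.

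Enzymes that build nucleotides from small precursors also stayed within their yardsticks. Cad, whose protein carries out the first steps of pyrimidine synthesis, read 3454 (array labelled antisense), against 4228 (scrambled) and 4082 (untreated), differences of -0.29 and -0.24 with a yardstick of 0.62. Ctps, which makes CTP from UTP, read 5590.4, 6195 and 6336, differences of -0.15 and -0.18. Gart, which catalyses several steps of purine synthesis, read 5270.4, 5899 and 5444. Adsl, the adenylosuccinate lyase gene, read 2070.1, 2299 and 2445, differences of -0.15 and -0.24. Umps, which makes UMP, read 687, 472 and 684, and since the scrambled value is below the floor its fold over scrambled is at least 1.15. Ppat, which opens purine synthesis, was below the floor on the 3 arrays.

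Impdh1, an IMP dehydrogenase of guanine nucleotide synthesis, read 115 (array labelled antisense), which is below the floor, against 877 (scrambled) and 639 (untreated). It was at least 1.47-fold lower than scrambled, and the untreated value was itself little above the floor. With the floor at 1 robust standard deviation of the noise, in place of 2, Impdh1 differed by -1.56 and -1.10 and Nolc1 by -0.72 and -0.77. These 2 were then the members at least 25% lower than both controls, beside 13.1% of all probe sets. The sizes for Impdh1 and Nolc1 follow the floor chosen, since the array labelled antisense lay below both of these floors. With the floor at the 40th percentile, 178.1, Nolc1 lay above it at 196 and differed by -1.33 and -1.38.

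The 3 measured genes of adenine salvage and of nucleoside diphosphate kinases stayed within their yardsticks. Nme2, a nucleoside diphosphate kinase gene, read 47629 (array labelled antisense), against 39678 (scrambled) and 38343 (untreated). The differences were 0.26 and 0.31 with a yardstick of 0.32, and the controls differed by 0.05. With quantile normalization they were 0.32 and 0.34. This placed Nme2 with Polr1d as the 2 members at least 25% higher than both, beside 13.2% of all probe sets. Aprt, which salvages adenine, read 4869, 4101 and 4291, differences of 0.25 and 0.18 with a yardstick of 0.56, and its other probe set was below the floor. Nme1, whose product is closely related to that of Nme2, read 1762, 1976 and 1281 in a family probe set, so the arrays of both oligonucleotides were above the untreated one, by 0.46 and 0.62 with a yardstick of 0.84. The family probe set could bind transcripts of both kinases. Of the 11 polyamine and nucleotide members past the filter, 6 were lower than both controls (54.5%, beside 32.0% of all probe sets), 3 higher (27.3%, beside 37.2%) and 2 between, with medians of -0.15 against scrambled and -0.08 against untreated.

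Because many of these genes are known MYC targets, their promoters were searched for the E-box CACGTG, the sequence that MYC and its partner MAX bind best. It reads the same on both strands. The window ran from 250 bases before to 50 after each start listed by RefSeq on GRCm38.p6, and 34 of the 38 genes had one. The E-box was found in 6 of the 34 (Nop2, Pes1, Nme1, Atic, Paics and Impdh2), or 17.6%, beside 17.8% of 118 other genes of the same pathways and 8.09% of all 27025 genes in the table. Among the 27 with both a window and a probe set it was found in 3, or 11.1%, beside 11.5% of the 6545 genes named on the arrays. A match is a description of the sequence and not a shown binding site. The 3 measured genes with an E-box are shown as 120 bases around it, 5′ to 3′ on the gene's strand, with the E-box in capitals. Nop2 lies at chr6:125131766-125131885 (+), Pes1 at chr11:3963905-3964024 (+) and Nme1 at chr11:93968228-93968347 (-).
Nop2: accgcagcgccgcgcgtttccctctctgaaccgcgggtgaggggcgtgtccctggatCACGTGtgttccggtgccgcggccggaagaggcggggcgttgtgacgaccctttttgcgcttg
Pes1: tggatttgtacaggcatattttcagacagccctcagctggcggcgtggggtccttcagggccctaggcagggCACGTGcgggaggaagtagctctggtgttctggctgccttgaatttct
Nme1: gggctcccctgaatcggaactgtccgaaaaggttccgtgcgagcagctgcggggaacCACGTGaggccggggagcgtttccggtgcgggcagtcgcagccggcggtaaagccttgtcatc

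Myc itself read 5114 (array labelled antisense), 4944 (scrambled) and 4457 (untreated), differences of 0.05 and 0.20 with a yardstick of 0.51. Its partner Max read 3412, 3432 and 4530, with differences of -0.41 and -0.40 from untreated for the arrays of the antisense and scrambled oligonucleotides. Mlx, a Max-like protein gene, read 1588, 2042 and 2644, and Mxd3, a MAX-binding repressor gene, read 1061, 756 and 1003. Max, Mlx and Mxd3 lay within their yardsticks of 0.70, 0.77 and 1.15. Mxi1, of the same network, read 156, 353 and 1914, so it was below the floor on the arrays of both oligonucleotides. With the floor in their place, both differed by -1.68 from untreated, past the yardstick of 1.21. Mxd4, also of this network, went the other way, at 2530, 3138 and 1749. The scrambled array differed by 0.84 from untreated, past the yardstick of 0.68, and the array labelled antisense by 0.53, within it.

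Among other genes of ribosome biogenesis, Nop10 and Nop53 were higher past the yardstick against both controls. These are 2 of the 48 past the filter. The share of all probe sets past the yardstick against both controls in 1 direction was 5.26%. Of 48 past the filter, out of 56 with a probe set, 24 lay above both controls (50%, beside 37.2% of all probe sets) and 11 below (22.9%, beside 32.0%), and the medians were 0.10 against scrambled and 0.07 against untreated. By at least 25%, 8 were higher than both (16.7%, beside 13.5%) and 1 lower (2.08%, beside 11.0%). Nop10, the fourth core protein of box H/ACA snoRNPs and partner of Nhp2 and Gar1, read 31907 (array labelled antisense), against 20786 (scrambled) and 19422 (untreated). Its differences of 0.62 and 0.72 exceed the yardstick of 0.33. Nop53, of large subunit maturation, read 12419, 7943 and 8737, differences of 0.64 and 0.51 beyond a yardstick of 0.37. Rrn3, an initiation factor of RNA polymerase I, read 3554, 2535 and 2409.8, differences of 0.49 and 0.56 within a yardstick of 0.65. Sbds, which prepares the large subunit for translation, read 4284, 2210.5 and 3063.5. Its differences of 0.95 and 0.48 passed the yardstick of 0.63 against scrambled only. Nvl, an ATPase of the nucleolus, read 2007, 1263 and 794 in a family probe set. Its differences of 0.67 and 1.34 passed the yardstick of 1.23 against untreated only. The 5 genes named so far were all higher. Of the 11 lower than both controls, Tbl3 differed by -0.58 and -0.47, past its yardstick of 0.56 against scrambled only. Pno1 differed by -0.29 and -0.39, past its yardstick of 0.33 against untreated only.

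Other genes of nucleotide metabolism went both ways. Of 21 past the filter, 10 were higher than both controls (47.6%, beside 37.2% of all probe sets) and 8 lower (38.1%, beside 32.0%). By at least 25%, 6 were higher (28.6%, beside 13.5%) and 3 lower (14.3%, beside 11.0%). Ada, the adenosine deaminase gene, read 1492 (array labelled antisense), against 3190.4 (scrambled) and 2479.5 (untreated), differences of -1.10 and -0.73 beyond a yardstick of 0.68. Uck1, a uridine and cytidine kinase gene, read 3881, 2670.2 and 2715, and Guk1, the guanylate kinase gene, read 7316, 5523 and 5132. Nme4, a mitochondrial relative of Nme2, read 2528, 1755 and 1353, and Itpa, which clears inosine triphosphate, read 3808, 2538 and 2811. These 4 were higher than both controls, and except for Nme4 and Guk1 against untreated each difference lay within its yardstick. Of 5 other polyamine genes, 3 were lower than both (60.0%, beside 32.0%) and 0 higher (beside 37.2%). The lower ones were Oaz1, the antizyme gene, at 704, 883 and 1146 in a family probe set, Sat1, a polyamine acetyltransferase gene, at 1182, 1360.3 and 1602, and Dohh, which completes the spermidine-derived residue of a translation factor, at 3391, 3897 and 3767. All 3 lay within their yardsticks of 1.17, 1.19 and 0.68.

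**Figure D4:**
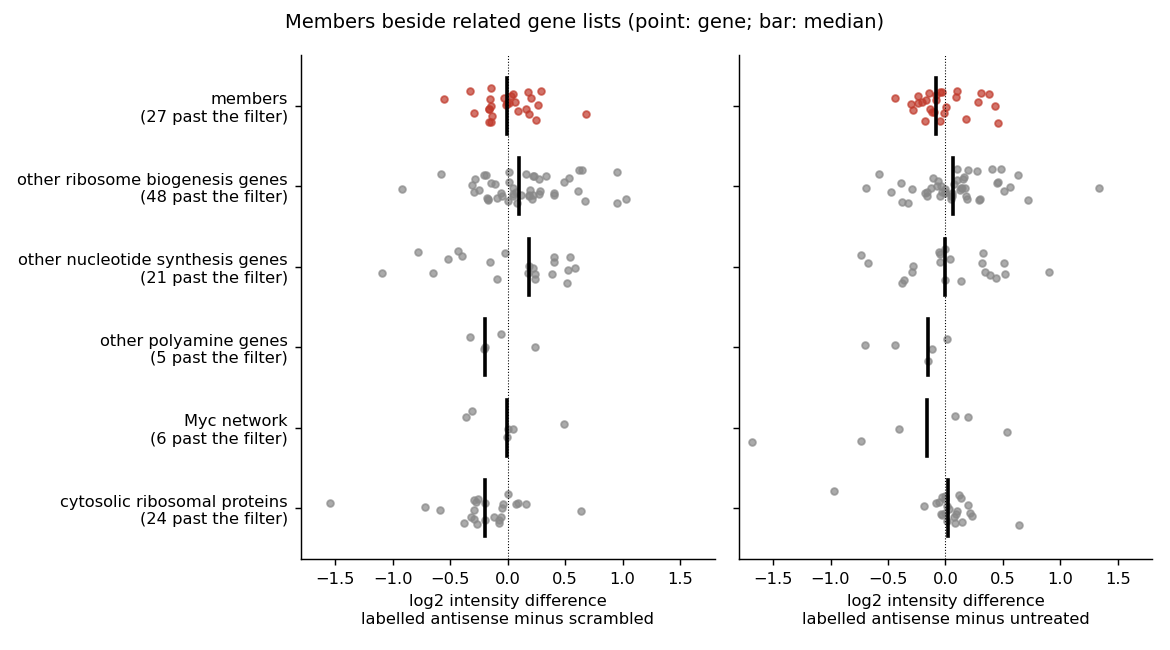
Log2 intensity differences of the 27 members (red) and of genes of related lists (grey) past the filter, for the array labelled antisense minus scrambled (left) and minus untreated (right). Each point is a gene, spread vertically at random, and each black bar is the median of its list, with 1 array per group. The members center on -0.01 and -0.08, the other ribosome biogenesis genes on 0.10 and 0.07, and ribosomal proteins on -0.20 and 0.02.

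Cytosolic ribosomal proteins, the other component of the ribosome, were read mostly at high intensity, where the scrambled array was high as a whole. Of 34 genes with a probe set, 24 were past the filter and the others were below the floor on the 3 arrays. Whether those probe sets report their transcripts was not tested. Of the 24 genes past the filter, 19 averaged above 30000, against 3 of the 27 members. On the array labelled antisense 8 of the 24 were lower than both controls (33.3%, beside 32.0% of all probe sets) and 4 higher (16.7%, beside 37.2%). The median was -0.20 against scrambled, 0.02 against untreated and 0.23 for scrambled minus untreated. The medians over all 193 probe sets above 30000 were -0.17, -0.01 and 0.15 in the same order.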

How the data were processed

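RNA of 3 groups of LNC cells was measured on the first version of an Affymetrix mouse genome array, 1 array per group. The authors deposited intensity values on a linear scale for 12654 probe sets, 66 of them controls. Between 24.8% and 27.9% of the deposited values are at or below 0, and their mean after trimming 2% at either end is 1500.0 for all 3 arrays. Software and genome build are not given in the sources used here. Each array was scaled to a common trimmed mean over the 12588 other probe sets. The floor was 2 robust standard deviations of the values below 0 (595.9), log2 was taken, and probe sets above the floor on any array (6127) passed the filter, so a gene could pass through 1 array. Between 42.0% and 42.6% of probe sets per array were above the floor. No probe set's level is set against another's.

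Symbols came from the platform annotation and were updated through the RefSeq gene table, and 10276 probe sets had exactly 1. No test was run, and the number of arrays limits the precision. The members, lists, floor and tests were chosen with earlier results of these data known. All members are described. From each related list up to 5 genes above the floor on all arrays are named. They are those with the largest difference in 1 direction from both controls. Outside this rule, Tbl3, Pno1, Mxi1 and Mxd4 are given for differences past a yardstick. They are not all such genes. Against scrambled, Rrm2 at -0.52 and Mthfd2 at 0.51 were also past their yardsticks of 0.42 and 0.33, and others are not described. Several alternatives for scaling, floor, filter and probe set choice were tried. The steps were run on simulated data with changes of 2-fold or more in bright probe sets. That run says nothing on differences as small as those of most members, nor on the yardstick. Python 3.11.15, numpy 2.4.6, pandas 2.3.3 and matplotlib 3.10.9 were used.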

Additional observations from a re-analysis of the deposited data

How the results depend on the processing

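Each of 7 results (the 3 medians and 4 counts of members) was recomputed under 11 alternatives, and 69 of these 77 values stayed within 0.21 of the median or within 1.5 times the count reported. Scaling to the spike-in controls moved the medians to 0.5048 against scrambled and 0.5486 against untreated. It moved the number of members lower than both controls to 0 and the number higher to 26, counts given without a share of all probe sets. The number at least 25% higher became 23, beside 58.2% of all probe sets. Quantile normalization gave 2 members at least 25% higher, Polr1d and Nme2, beside 13.2% of all probe sets. A floor at 1 robust standard deviation and a floor at the 40th percentile each gave 2 members at least 25% lower, Nolc1 and Impdh1. Both were below the floor used here on the array labelled antisense. The shares of all probe sets at least 25% lower were 13.1% and 14.7% with these floors. Apart from the spike-in scaling, the medians ranged from -0.06 to 0.00 against scrambled, from -0.10 to -0.05 against untreated and from -0.06 to -0.01 between the controls, with 11 to 14 members lower than both controls and 5 to 7 higher. No array could be left out, since each group has 1. No paired analysis was possible because each group has 1 array. Low intensity limits Bop1, Pes1, Odc1, Polr1b and Nme1, whose yardsticks were the widest among members above the floor on all 3 arrays, and 3 members were below the floor on every array.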

Other observations

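Of 8 members with a second probe set, the dimmer one was past the filter for 1, Bop1, so nearly every member rests on a single probe set. Of the 27 members past the filter, 4 were read by a probe set whose suffix marks a family of transcripts: Nop58, Polr1b, Srm and Nme1.

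Among ribosomal protein genes, Rps27, of the small subunit, read 1307 (array labelled antisense), against 3821 (scrambled) and 2561 (untreated), differences of -1.55 and -0.97 beyond a yardstick of 0.70. Rpl24, of the large subunit, read 729, 1199 and 828, with differences of -0.72 and -0.18 within a yardstick of 1.155. Both read far below most of this list, of which 19 of 24 averaged above 30000. Whether these low probe sets report their transcripts was not tested. Rplp0, of the ribosomal stalk, read 132847, 172709 and 140746.5, so the scrambled array was the high one. Rpl10a read 110092, 98841.5 and 96269, and Rpl13a read 30377, 28479 and 25825, both highest on the array labelled antisense by less than their yardsticks of 0.33.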
